A study of Mus musculus with 24 samples.

Results

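The genes described are the enzymes that write and remove cytosine methylation: the DNA methyltransferases Dnmt1, Dnmt3a and Dnmt3b, their catalytically inactive partner Dnmt3l, the dioxygenases Tet1, Tet2 and Tet3, and the glycosylase Tdg. They were chosen by symbol, and all 8 were found among the 32040 gene symbols of the deposited tables. All 8 passed the count filter that left 16190 genes for testing, but Dnmt3l did so only through the XY libraries of E15.5 (the number is the embryonic day). Counts of genes that passed a test are therefore given over the other 7, which had at least 10 counts in every library, and Dnmt3l is described apart.

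DNMT1 copies existing methylation onto the new strand at each replication, guided by UHRF1, which binds hemimethylated CpG sites. DNMT3A and DNMT3B set methylation at unmethylated sites, and DNMT3L stimulates them, a role best known from fetal male germ cells. TET enzymes oxidise methylcytosine, TDG excises the later oxidation products, and base excision repair then restores cytosine. In the mammalian gonad the supporting cells are the somatic lineage that becomes Sertoli cells in the testis and granulosa cells in the ovary.

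RNA was sequenced from fluorescence-sorted mouse fetal gonad cells: pre-granulosa cells of XX embryos of the Tg(Enh8-mCherry) line and Sertoli cells of XY embryos of the SOX9-IRES-GFP line. Each was collected at E11.5 and E12.5, and again at E13.5 and at E15.5, with 3 libraries in each of the 8 groups, and the labels name no treatment. The study asked how the 2 supporting cell types diverge. Sex, mouse line and fluorophore differ together between XX and XY libraries and cannot be told apart, and the labels do not say whether replicates came from separate litters, so p-values measure the spread between these libraries.

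Total counts per library ran from 11275251 to 37256881. Of 9 Sertoli markers, 8 or 9 reached a mean of 10 CPM (counts scaled to library size after correction for composition) in each XY group. In each XX group 8 of 9 pre-granulosa markers did so. The Sertoli markers that also did so in XX cells numbered 4, 4, 4 and 3 at the successive stages. In XY cells 3, 1, 0 and 0 of the pre-granulosa markers did. Summed CPM of 7 erythroid genes was 3239 to 27716 in the XX E11.5 libraries and 10.7 to 24.7 in the XY E11.5 libraries, and summed CPM of 9 immune genes was 161 to 430 against at most 2.32. From E12.5 on, the immune sum was 40.3 to 65.2 CPM in XX libraries and at most 1.51 CPM in XY libraries. At E15.5 the sum of 10 interstitial and steroidogenic markers was 670 to 778 CPM in XX and 172 to 249 CPM in XY. That of 5 surface epithelium markers was 622 to 651 CPM in XX and 72.4 to 76.4 CPM in XY. The part of these differences in any XX minus XY result was not tested. In XY E11.5 replicate 3 the X-inactivation RNA Xist stood at 40.8 CPM, against 0.272 and 6.32 CPM in the other XY E11.5 libraries and 71.0 to 108.8 CPM in XX E11.5. One label field of XX E13.5 replicate 1 gives E12.5, while its title and description give E13.5. In bulk RNA of sorted cells, fewer cells of a type and less RNA per cell cannot be told apart.

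Levels between genes were compared in the deposited TPM, a unit that also divides by transcript length. Dnmt3a and Tdg were the most abundant of the 8 in every group. At XX E15.5 Dnmt3a stood at 194.7 ± 17.03 TPM (SD, n = 3) and Tdg at 74.8 ± 5.63 TPM, while Tet2, Dnmt1 and Tet1 had 16.5, 12.1 and 10.7 TPM. At XY E15.5 Tdg stood at 98.4 ± 5.55 TPM, Dnmt3a at 78.7 ± 5.59 TPM and Dnmt1 at 72.0 ± 2.25 TPM, and no other member exceeded a mean of 15.8 TPM. Dnmt3b ranged between 4.13 and 17.7 TPM over the 8 groups.

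**Figure D1:**
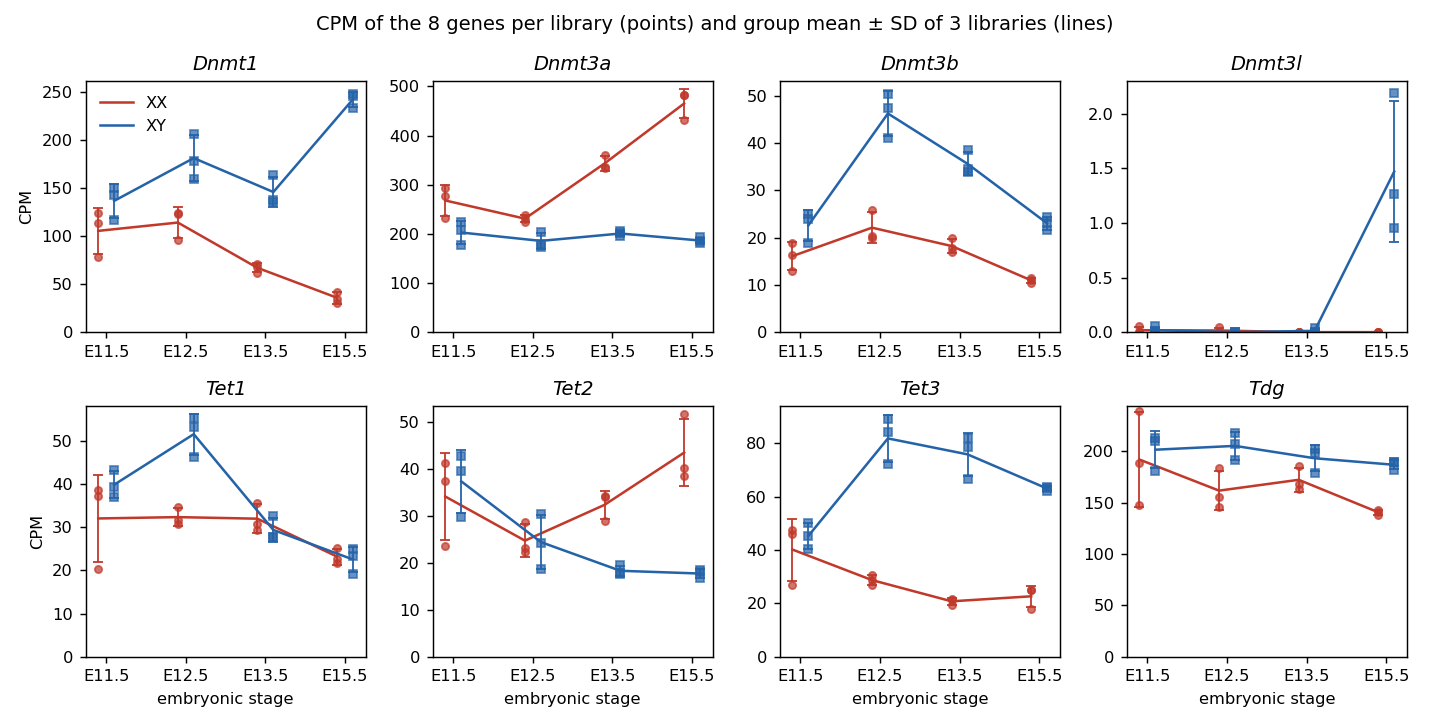
CPM (vertical axis, linear from 0, one scale per gene) of each of the 8 genes at the 4 stages. Points are libraries, red circles XX and blue squares XY, lines join group means and bars are the SD of 3 libraries. Dnmt1 falls to 35.8 CPM in XX and stands at 242.3 CPM in XY at E15.5, Dnmt3a reaches 465.1 CPM in XX, and Dnmt3l is above 0.1 CPM in the XY E15.5 libraries alone.

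The upstream sequences below are those of the maintenance gene, the de novo gene that moved against it, and Dnmt3l. They come from RefSeq (GRCm38.p6, the assembly of the mm10 build) and lie directly before an annotated start, outside every annotated exon. Capitals mark CpG, the dinucleotide these enzymes act on. The first is the stretch before the CpG-rich Dnmt1 start (chr9:20952624-20952707, minus strand, 84 bases, 7 CpG), the second lies before the distal Dnmt3a start (chr12:3806730-3806979, plus strand, 38 CpG) and the third before an internal Dnmt3l start (chr10:78049592-78049841, plus strand, 4 CpG).
Dnmt1: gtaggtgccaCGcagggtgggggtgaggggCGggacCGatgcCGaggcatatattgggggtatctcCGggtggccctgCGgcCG
Dnmt3a: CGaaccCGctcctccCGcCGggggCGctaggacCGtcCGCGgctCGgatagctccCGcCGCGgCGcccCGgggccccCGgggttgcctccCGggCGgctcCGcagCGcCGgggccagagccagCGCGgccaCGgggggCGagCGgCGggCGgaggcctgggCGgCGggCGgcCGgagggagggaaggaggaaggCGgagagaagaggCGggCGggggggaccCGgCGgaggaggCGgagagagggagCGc
Dnmt3l: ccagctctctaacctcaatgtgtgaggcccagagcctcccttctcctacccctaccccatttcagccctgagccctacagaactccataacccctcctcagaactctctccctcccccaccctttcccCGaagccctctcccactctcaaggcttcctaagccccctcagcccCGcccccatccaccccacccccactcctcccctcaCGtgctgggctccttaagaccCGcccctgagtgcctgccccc
All 8 genes matched the RefSeq promoter table, with 14 starts in all. Over the 250 bases before a start, the median of all 32851 promoters was 6 CpG. The CpG-rich Dnmt1 window held 26 over its whole 250 bases, of which 166 bases are annotated exon, and Tet2 held 51. The 3 Dnmt3l windows held 3 to 5. The E2F consensus was searched on both strands as TTTCCCGC, TTTGGCGC, TTTCGCGC and TTTGCCGC. One of these occurred in 1.86% of all promoters and in 1 of the 14 member windows, as TTTCGCGC in the exonic part of the CpG-rich Dnmt1 window. Counts are per gene and do not say which start was used.

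Dnmt1 (chr9:20907209-20959888, minus strand) moved in opposite directions in the 2 cell types from E13.5 to E15.5. In XX cells it stood at 124, 78.0 and 114 CPM at E11.5 (replicates 1 to 3) and 123, 124 and 95.6 CPM at E12.5. It then stood at 71.3, 61.8 and 67.8 CPM at E13.5 and 35.0, 42.1 and 30.2 CPM at E15.5. In XY cells it stood at 117, 150 and 143 CPM at E11.5, 159, 206 and 178 CPM at E12.5, then 164, 136 and 138 CPM (E13.5) and 248, 233 and 245 CPM at E15.5. Only at E11.5 did XX and XY libraries overlap.

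The XX minus XY log2 difference of Dnmt1 grew from stage to stage, being -0.37 (SE 0.15), -0.67 (SE 0.15), -1.12 (SE 0.16) and -2.76 (SE 0.17), with edgeR adjusted p of 0.0548, 7.69e-04, 2.11e-06 and 5.01e-12. The last is a 6.78-fold higher level in XY cells. The E11.5 difference gained a call without any of 4 libraries, down to an edgeR adjusted p of 0.0161, and under 4 of the other settings. The E12.5 call was lost with limma on log2(TPM + 1) without a filter (limma adjusted p 0.0647). The difference itself changed with stage, with an edgeR adjusted p of 4.62e-08 for the sex-by-stage interaction. Within XX cells Dnmt1 fell by 0.77 on the log2 scale from E12.5 to E13.5 and by 0.90 from E13.5 to E15.5 (edgeR adjusted p 7.84e-04 and 3.27e-04). Within XY cells it rose by 0.73 from E13.5 to E15.5 (adjusted p 0.0015). From E12.5 to E13.5 the XY difference was -0.31 and was not called (edgeR adjusted p 0.175). The earlier XY step, +0.41 from E11.5 to E12.5 (adjusted p 0.0304), lost its call when any of 18 libraries was left out and under 7 of the other settings, with edgeR adjusted p between 0.027 and 0.28 over the left-out libraries.

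Dnmt3a (chr12:3806007-3914443, plus strand) was higher in XX cells at every stage, with no overlap between XX and XY libraries of a stage. XX libraries held 278, 233 and 293 CPM at E11.5 and 238, 230 and 225 CPM at E12.5. They held 336, 360 and 333 CPM at E13.5 and 482, 431 and 482 CPM at E15.5. XY libraries held between 174 and 223 CPM at all 4 stages. The XX level therefore climbed after E12.5 while the XY libraries stayed in one narrow band.

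The XX minus XY log2 difference of Dnmt3a was 0.40 (SE 0.09), 0.31 (SE 0.09), 0.77 (SE 0.09) and 1.32 (SE 0.09) at the successive stages, with edgeR adjusted p of 0.0016, 0.0060, 3.12e-07 and 8.72e-11. Its interaction with stage had an adjusted p of 3.98e-06. In XX cells it rose by 0.57 to E13.5 and by 0.44 to E15.5 (edgeR adjusted p 1.24e-04 and 0.0017). Across the XY stages no change was called (edgeR adjusted p 0.43). Leaving out XY E11.5 replicate 1 brought that XY test to an adjusted p of 0.0341. On the TPM scale the XX step to E13.5 was 0.04, with a limma adjusted p of 0.86. The transcript length implied by the ratio of counts to TPM was 2681 ± 274 bases at XX E12.5 and 3298 ± 163 bases at XX E13.5 (SD, n = 3), and the annotation lists 18 Dnmt3a transcripts of 369 to 9685 bases.

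In TPM, the ratio of Dnmt3a to Dnmt1 was 3.85 ± 0.89 (SD, n = 3) in XX cells at E11.5 and then 3.85 ± 0.83, 7.16 ± 0.83 and 16.3 ± 1.42 at the later stages. In XY cells the same ratio was 2.09 ± 0.24, 1.48 ± 0.16, 2.02 ± 0.23 and 1.09 ± 0.09. XX and XY libraries did not overlap in this ratio at any stage. Over the 8 group means of log2(CPM + 1), Dnmt1 and Dnmt3a correlated at r = -0.97, a description that rests on 8 points sharing libraries and scaling.

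**Figure D2:**
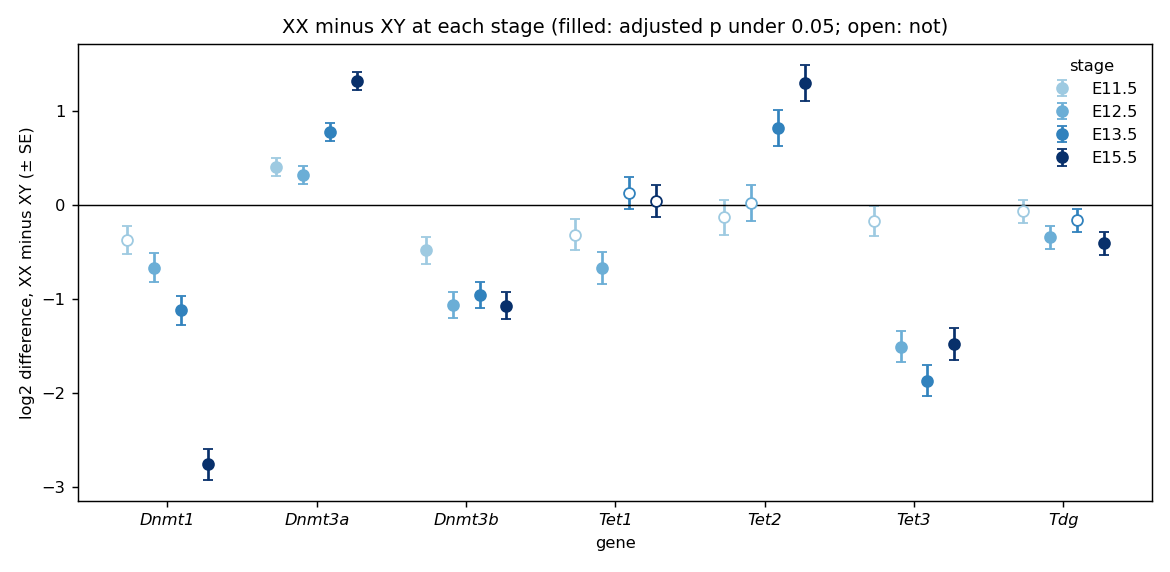
Log2 difference XX minus XY (vertical axis, with its SE) for 7 genes at the 4 stages, light to dark blue. Filled points had an edgeR adjusted p under 0.05. Dnmt1 reaches -2.76 and Dnmt3a 1.32 at E15.5, Dnmt3b lies below 0 throughout, and Tet2 and Tet3 lie on opposite sides of 0 at E13.5 and E15.5.

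Dnmt3b (chr2:153649450-153687730, plus strand), the second catalytic de novo enzyme, was lower in XX cells at each stage. XX libraries held 13.0 to 18.8 CPM at E11.5 and 19.9 to 25.9 CPM at E12.5. They held 16.9 to 19.9 CPM at E13.5 and 10.4 to 11.55 CPM at E15.5. XY libraries held 18.7 to 24.9, 41.0 to 50.4, 34.0 to 38.4 and 21.6 to 24.4 CPM at the same stages. The XX and XY ranges overlapped at E11.5 only.

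The XX minus XY log2 differences of Dnmt3b were -0.49 (SE 0.14), -1.07 (SE 0.14), -0.96 (SE 0.14) and -1.07 (SE 0.14), with edgeR adjusted p of 0.0077, 9.38e-07, 3.72e-06 and 1.10e-06. The group mean was highest at E12.5 in both cell types. The fall from E12.5 to E13.5 was not called in either (edgeR adjusted p 0.144 in XX and 0.0609 in XY). In XY cells Dnmt3b rose by 1.03 from E11.5 to E12.5 and fell by 0.63 from E13.5 to E15.5 (edgeR adjusted p 2.00e-06 and 0.0022). In XX cells it rose by 0.45 to E12.5 and fell by 0.74 from E13.5 to E15.5 (edgeR adjusted p 0.0162 and 8.95e-04). The smaller XX rise lost its call without XX E11.5 replicate 3 or XX E12.5 replicate 2, with adjusted p of 0.0938 and 0.168. The interaction of Dnmt3b with stage, at an adjusted p of 0.0319, lost its call without any of 13 libraries, up to an adjusted p of 0.202 without XY E11.5 replicate 3, and under 4 other settings, up to 0.284.

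Dnmt3a made up 93.8% to 97.9% of the summed Dnmt3a and Dnmt3b TPM in the XX groups and 81.1% to 89.96% in the XY groups. The extremes were 97.9% ± 0.17 (SD, n = 3) at XX E15.5 and 81.1% ± 0.94 at XY E12.5. Counts of Dnmt3a were not whole numbers in 50% of libraries and those of Dnmt3b in 87.5%, and how such counts were divided is not given in the sources used here.

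Dnmt3l (chr10:78041947-78063622, plus strand) had 22, 39 and 20 counts in the XY E15.5 libraries, or 0.955, 2.19 and 1.27 CPM. The other 21 libraries had 0, 1 or 2 counts each. Against a floor of 3 counts in the shallowest library of a group, the XY E15.5 mean of 1.47 CPM was at least 5.64-fold higher than XX E15.5, at least 6.49-fold higher than XX E13.5 and at least 10.5-fold higher than XY E12.5, groups in which every library was at 0. Since the gene entered the tests through these 3 libraries alone, no test of it is given. Dnmt3l overlaps the antisense gene Aire, which had 1 count in each XY E15.5 library and 7 to 18 counts in the XX E15.5 libraries.

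Germ cell markers were read beside Dnmt3l. The summed CPM of 15 germ cell markers was 104.8 to 157.7 in the XY E15.5 libraries and 55.3 to 63.0 in XY E13.5, and 11 of the 14 tested rose over that step (median log2 difference 2.19), against 11.51% of all genes. The same sum was 119.7 to 185.4 in XX E15.5, where Dnmt3l had no count. Piwil2, a germline PIWI gene, stood at 22.8 to 31.3 CPM in the XY E15.5 libraries and 2.81 to 4.998 CPM in XX E15.5, but it was already at 21.4 to 29.8 CPM in XY E12.5 and 24.4 to 26.5 CPM in XY E13.5. Sycp3, a synaptonemal complex gene of meiosis, stood at 1.90 to 3.65 CPM in XY E15.5 and 59.2 to 101.3 CPM in XX E15.5. Of the 15 markers it made the largest part of the XX E15.5 sum. Ddx4 stood at 9.85 to 16.8 CPM in XY E15.5 and 10.5 to 18.3 CPM in XX E15.5. Mael stood at 6.38 to 13.0 CPM in XY E15.5 and 6.86 to 11.9 CPM in XX E15.5. Dazl was lower in XY E15.5, at 7.16 to 10.9 CPM against 21.4 to 31.2 CPM in XX E15.5. Some other markers of the list were higher in XY E15.5 than in XX E15.5, as Dnmt3l was. Nanos2 had 10, 16 and 6 counts in the XY E15.5 libraries and none in any other group. Pou5f1 stood at 3.99 to 7.24 CPM in XY E15.5 and 0.200 to 0.356 CPM in XX E15.5. The part of germ cell RNA in the Dnmt3l signal was not tested. The gene whose group means were most like those of Dnmt3l was Dppa4 (r = 0.99 over 8 group means, Spearman's rho 0.27). That r rests on the XY E15.5 point, since the other 7 Dnmt3l means lie at or near 0. Dppa4 stood at 12.9 ± 3.81 CPM in XY E15.5 and at most 0.561 CPM on average elsewhere.

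**Figure D3:**
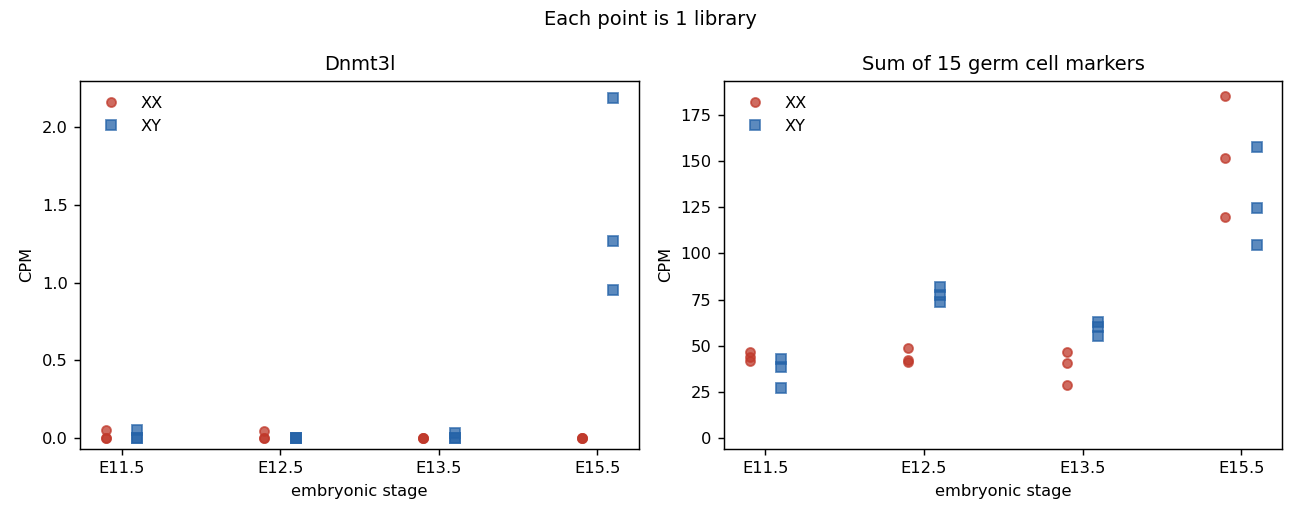
CPM of Dnmt3l (left) and the summed CPM of 15 germ cell markers (right) in each library, by stage, both on linear axes. Red circles are XX and blue squares XY libraries. Dnmt3l is present at 0.955 to 2.19 CPM in XY E15.5, while the germ cell sum is also high in XX E15.5, at 119.7 to 185.4 CPM.

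Tet1 (chr10:62804570-62908996, minus strand) was called between the cell types at E12.5 and not at the other stages. There the XX libraries held 31.6, 30.8 and 34.6 CPM and the XY libraries 55.2, 53.3 and 46.2 CPM, a log2 difference of -0.67 (SE 0.17, edgeR adjusted p 0.0014). At E11.5, E13.5 and E15.5 the differences were -0.32, 0.12 and 0.04 (edgeR adjusted p 0.129, 0.529 and 0.846). In XY cells Tet1 then fell by 0.81 from E12.5 to E13.5 (adjusted p 0.0018). A fall of 0.46 in XX cells from E13.5 to E15.5 had an edgeR adjusted p of 0.0496 and lost its call without any of 5 libraries (XX E13.5 replicate 1, 2 or 3, XX E15.5 replicate 1 or 3) and with the replicate number as a block (adjusted p 0.0536). The interaction with stage had an edgeR adjusted p of 0.0175 and lost its call without XX E12.5 replicate 1, XY E12.5 replicate 2 or XY E13.5 replicate 3, up to 0.0632, and in all 3 limma fits, up to 0.444. On the TPM scale the E12.5 difference was -0.52 with a limma adjusted p of 0.0554.

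Tet2 (chr3:133463679-133545139, minus strand), which lacks the CXXC DNA-binding domain of its relatives, became higher in XX cells late. At E11.5 and E12.5 the libraries of both cell types overlapped and the log2 differences were -0.13 and 0.02 (edgeR adjusted p 0.596 and 0.943). At E13.5 XX libraries held 28.8, 34.2 and 33.9 CPM against 17.7, 17.7 and 19.4 CPM in XY. At E15.5 the XX libraries held 40.1, 38.4 and 51.6 CPM against 17.9, 18.5 and 16.6 CPM in XY. Those differences were 0.82 (SE 0.19, edgeR adjusted p 7.95e-04) and 1.30 (SE 0.19, adjusted p 4.56e-06), and the interaction with stage had an adjusted p of 2.06e-04. In XY cells Tet2 fell by 0.61 from E11.5 to E12.5 (edgeR adjusted p 0.0095). No single XX step was called, while the test over all 4 XX stages was (adjusted p 0.0060, and 0.0502 without XX E12.5 replicate 1).

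Tet3 (chr6:83362373-83459084, minus strand) showed the reverse. At E11.5 XX libraries held 46.2, 26.8 and 47.6 CPM and XY libraries 50.1, 45.3 and 40.6 CPM, which overlap. From E12.5 on, XX libraries lay between 18.04 and 30.7 CPM and XY libraries between 62.2 and 89.1 CPM, with no overlap. The XX minus XY log2 differences were -0.18 (SE 0.16), -1.51 (SE 0.16), -1.87 (SE 0.17) and -1.48 (SE 0.17), with edgeR adjusted p of 0.403, 8.11e-08, 3.86e-09 and 9.27e-08, and the interaction had an adjusted p of 1.02e-05.

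The split of Tet3 arose between E11.5 and E12.5, when it rose by 0.85 in XY cells (SE 0.16, edgeR adjusted p 1.44e-04) and fell by 0.48 in XX cells (adjusted p 0.0276). It fell by a further 0.47 in XX cells to E13.5 (adjusted p 0.0358). Both XX steps were less firm. Between those stages the summed CPM of 10 interstitial and steroidogenic markers was 1224 to 1835 in the XY E11.5 libraries and 105 to 124 in XY E12.5. That of 9 Sertoli markers was 2379 to 4175 and 9675 to 9842. Their part in the XY steps from E11.5 to E12.5 of Tet3, Dnmt3b, Dnmt1 and Tet2 was not tested. The first XX step lost its call without XX E11.5 replicate 1 or 3 or XX E12.5 replicate 1 (edgeR adjusted p up to 0.161), and the other without any of 8 libraries (up to 0.147).

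The make-up of the TET transcripts thus differed between the cell types at E15.5. Tet2 made up 54.1% ± 9.8 (SD, n = 3) of the summed Tet1, Tet2 and Tet3 TPM in XX cells and 23.4% ± 2.7 in XY cells. Tet3 made up 11.3% ± 2.5 in XX and 41.5% ± 4.8 in XY, with no overlap between libraries in either share. Tet1 held 34.6% ± 7.5 and 35.0% ± 2.2. At E11.5 the Tet3 share was the larger in XX, at 30.7% ± 2.5 against 20.9% ± 1.5, but by CPM it was 37.8% against 37.0%. With 3 against 3 libraries no exact test can go below 0.1, so none was run. By CPM instead of TPM, the E15.5 shares of Tet3 were 25.5% in XX and 61.1% in XY, and those of Tet2 48.5% and 17.1%. The summed TET TPM itself was 30.7 ± 3.2 in XX cells and 37.997 ± 4.98 in XY cells at E15.5. The implied transcript length of Tet3 ranged from 4463 to 10453 bases between libraries, which moves its TPM against its CPM.

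**Figure D4:**
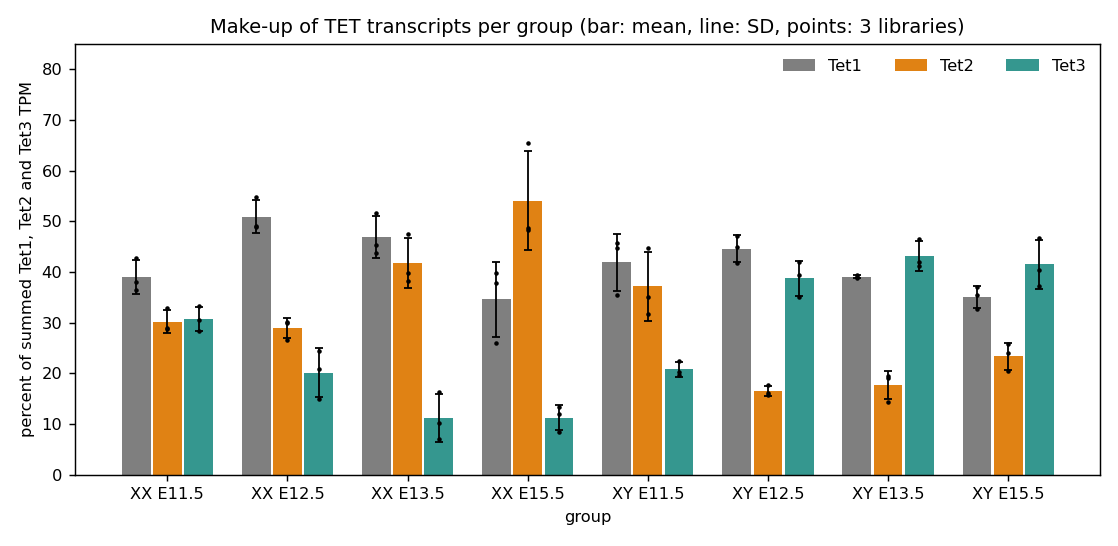
Percent of the summed Tet1, Tet2 and Tet3 TPM held by each gene in the 8 groups (bars from 0, mean of 3 libraries, with SD and single libraries as points). From E12.5 on Tet3 is the smallest share in XX, down to 11.2%, and 38.8% to 43.2% in XY.

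Tdg (chr10:82629828-82650799, plus strand), the glycosylase that follows the TET enzymes, had the narrowest spread of group means, relative to its level, of the 7. Group means lay between 140.7 ± 2.65 CPM at XX E15.5 and 205.4 ± 13.3 CPM at XY E12.5 (SD, n = 3). It was lower in XX cells at E12.5 (log2 difference -0.34, SE 0.12, edgeR adjusted p 0.0200) and E15.5 (-0.41, SE 0.12, adjusted p 0.0059). The E12.5 call was lost without any of 15 libraries, up to an edgeR adjusted p of 0.168, and under 4 other settings (a minimum of 10 counts in every library and 3 limma fits), up to 0.624. At E11.5 and E13.5 the differences were -0.07 and -0.17 (adjusted p 0.677 and 0.243), and the interaction had an edgeR adjusted p of 0.252, or 0.0166 without XX E11.5 replicate 2. A processed copy, Tdg-ps, was counted at 3.01 to 11.6 CPM on average, and Tdg counts were not whole in any library. Whether reads were divided between the 2 was not tested, and the level of Tdg is uncertain.

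Over the 7 genes, the number called in XX minus XY was 2 at E11.5 (Dnmt3a higher, Dnmt3b lower), where 42.0% of all genes tested were called. It was 6 at E12.5 (1 higher, 5 lower), against a background of 62.1%. At E13.5 it was 5 (2 higher, 3 lower), against 66.1%, and at E15.5 it was 6 (2 higher, 4 lower), against 69.4%. In XX cells 2, 3 and 4 were called at the successive steps, where 34.0%, 31.7% and 25.6% of all genes were. In XY cells the numbers were 4, 1 and 2, against 51.9%, 16.6% and 21.3%. Any change across stages was called for 7 in XX (74.0% of all genes) and 5 in XY (70.3%), and the interaction for 6 (70.1%). The count furthest above its background was that of the last XX step, 4 of 7 against 25.6%. Tet1 was among the 4, at an edgeR adjusted p of 0.0496. The count ranged from 3 to 5 with 1 library left out and from 0 to 6 over the other settings, the fold threshold included. None of the counts was tested against its background. The counts at E11.5 were lower with only the 6 libraries compared, a fit that also redid the filter, the scaling and the spread. With it 0 were called, with edgeR adjusted p of 0.113 for Dnmt3a and 0.134 for Dnmt3b. Over all genes, 2718 in place of 6803 were called. Which part of the refit made the change was not tested.

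XX E11.5 replicate 2 stood at 78.0 CPM of Dnmt1, 20.4 of Tet1, 23.6 of Tet2 and 26.8 of Tet3, each the lowest of its group. That library also had the lowest Dnmt3a and Tdg of its group, at 233 and 147.6 CPM, but the highest Dnmt3b, at 18.8 CPM. Without that library the E11.5 differences of Tet2, Tet3 and Tdg changed sign, to 0.07, 0.05 and 0.08 (edgeR adjusted p 0.783, 0.804 and 0.562). Leaving out XY E11.5 replicate 3, the library with Xist, gave E11.5 differences of 0.49 for Dnmt3a and -0.59 for Dnmt3b (edgeR adjusted p 4.33e-04 and 0.0036). Leaving out XX E13.5 replicate 1 left the number called at E13.5 at 5.

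Dnmt1 was next set beside genes of DNA replication, because its known role is at the replication fork. At E15.5 all 15 S phase genes were lower in XX cells, with a median log2 difference of -1.52 against 0.05 over all genes, 34.4% of which were called lower. The replication licensing genes Cdc6, Mcm2 and Mcm5 differed by -3.21, -2.39 and -2.25 (edgeR adjusted p 5.22e-10, 3.17e-13 and 4.42e-13). From E13.5 to E15.5 all 15 rose in XY cells (median 0.94, 11.51% of all genes called higher). In XX cells 11 of 15 were called lower (median -0.74, 12.8% of all genes called lower), and only E2f1 had an estimate above 0, at 0.27. Summed CPM of the 15 was 1028 to 1052 in XX E15.5 and 3229 to 3336 in XY E15.5.

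At E13.5 Dnmt1 was lower in XX by 1.12 on the log2 scale, while the S phase genes had a median of -0.03. Of the 15, 7 were called, 3 higher and 4 lower, where 66.1% of all genes were called. Dnmt1 lay below all of them but Cdc6, at -1.15. It also lay below all but Cdc6 at E15.5, where Dnmt1 was at -2.76 and Cdc6 at -3.21. At the XX step from E12.5 to E13.5, where Dnmt1 fell by 0.77, the S phase median was -0.02 and 5 were called (1 higher, 4 lower), against 31.7% of all genes. At E11.5 and E12.5 Dnmt1 differed by -0.37 and -0.67. There 7 and 8 of the 15 were called lower and 0 and 1 higher, with medians of -0.31 and -0.37. Over all genes, 42.0% and 62.1% were called at these stages in either direction. The difference between Dnmt1 and this list was not tested.

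**Figure D5:**
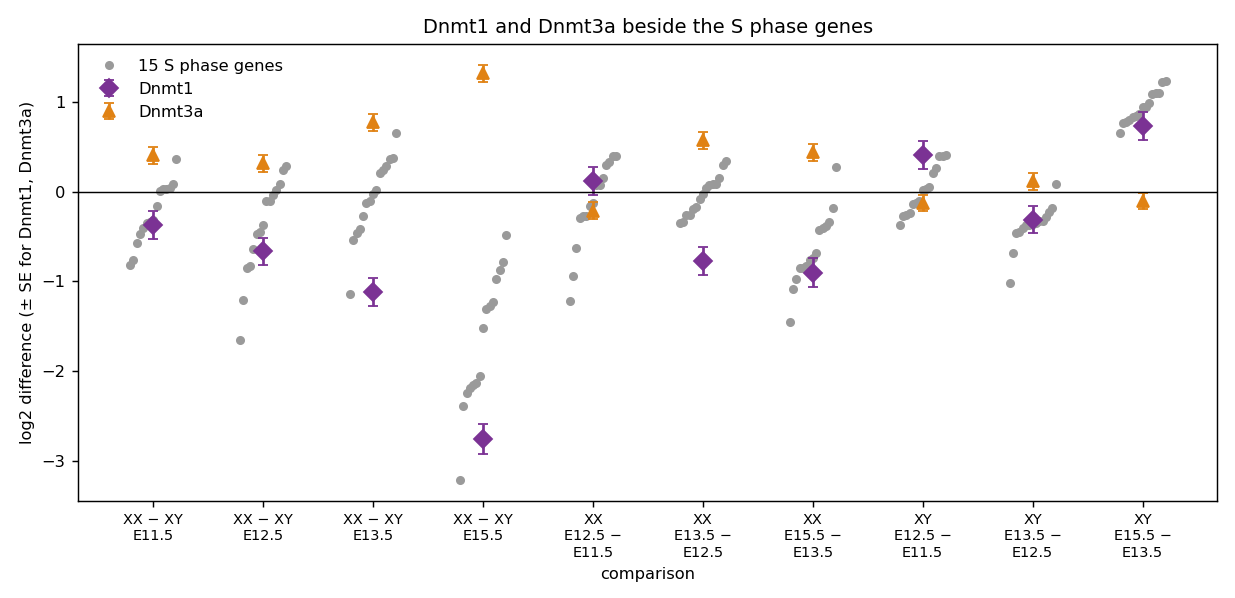
Log2 differences (vertical axis) of 15 S phase genes (grey points, sorted within each comparison), Dnmt1 (purple diamonds) and Dnmt3a (orange triangles), the last 2 with SE, in the 4 XX minus XY comparisons and 6 stage steps. At E15.5 all grey points and Dnmt1, at -2.76, lie below 0 and Dnmt3a at 1.32, while at E13.5 the grey points straddle 0 and Dnmt1 is at -1.12.

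Of 8 maintenance partners, 7 were called at E15.5, 6 lower and 1 higher in XX (median -0.73), where 69.4% of all genes were called, 34.4% lower and 34.9% higher. The same background holds for the E15.5 counts of the lists that follow. Uhrf1 averaged 26.4 CPM in XX cells against 177.5 in XY, a log2 difference of -2.75 (SE 0.15, edgeR adjusted p 8.56e-13), close to the -2.76 of Dnmt1. Cdca7l, related to the Hells cofactor Cdca7, differed by -2.06 and the replication clamp Pcna by -1.05 (adjusted p 6.90e-07 and 2.31e-08). Uhrf2 was the one higher in XX, by 0.48. Before E15.5 Uhrf1 was not called (-0.25, -0.15 and -0.29), and none of the 8 was called at E11.5, where 42.0% of all genes were. Cdca7 was higher in XX at E12.5 and E13.5, by 1.32 and 1.34, and lower at E15.5, by -0.53.

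Of 8 genes that target de novo methylation, 7 were called at E15.5, 5 higher and 2 lower in XX (median 0.48). Nsd1, a histone methyltransferase whose mark recruits DNMT3A, averaged 410.2 CPM in XX cells against 206.4 in XY, a log2 difference of 0.99 (edgeR adjusted p 6.08e-07), while its relative Nsd2 was lower in XX at all 4 stages, by -0.50, -0.45, -0.71 and -1.28. Kdm1b, a histone demethylase needed for oocyte imprints, was higher in XX by 0.84 at E15.5.

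Of the 8 TET partner and cofactor genes, 7 were tested and 5 called at E15.5, 2 higher and 3 lower in XX, a share near the 69.4% of all genes. Cxxc5, a CXXC protein that binds TET2, had XX minus XY differences of -1.43, -2.01 and -1.82 at the last 3 stages, all called. Idh1, which makes the TET cosubstrate oxoglutarate, was higher in XX at all 4 stages, by 0.30, 0.47, 1.42 and 2.20 (edgeR adjusted p 1.53e-12 at E15.5). Dppa3, with 0.864 CPM in XX cells against 15.8 in XY at E15.5, is also one of the germ cell markers above. Prdm14 did not pass the count filter.

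Of 14 base excision repair genes, 10 were called at E15.5, all lower in XX (median -0.69), where 34.4% of all genes were called lower. The largest differences were in Ung, a uracil glycosylase, at -2.35, Neil3 at -2.16 and Gadd45b at -1.58. At E11.5, E12.5 and E13.5 the lower calls numbered 4, 5 and 4 of 14 and the higher ones 1, 1 and 2, while 20.6%, 31.5% and 33.3% of all genes were called lower. Of 7 methyl-CpG readers, 5 were called at E15.5, 4 higher and 1 lower in XX (median 0.79), a share near that of all genes. Zbtb4 differed most, by 2.21, followed by Mbd2 at 1.36 and Mbd3 at 0.81, while Mbd1 was lower by -0.78.

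Of 8 methyl donor genes, 7 were called at E15.5, 5 lower and 2 higher in XX (median -1.15). The serine hydroxymethyltransferases Shmt1 and Shmt2 differed by -2.55 and -1.84. Mat2a, which makes S-adenosylmethionine, was lower in XX at all 4 stages, by -0.91, -0.81, -1.15 and -1.31. Methionine synthase, Mtr, was higher in XX at all 4 stages, by 0.85, 1.53, 1.23 and 1.08.

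By the correlation of the 8 group means of log2(CPM + 1) over 10865 genes, the pattern of Dnmt1 was most like those of Lmnb2, Zfp213 and Pidd1 (r = 0.99 for each). That of Dnmt3a was most like Tgtp1, Iscu and Pigp (r = 0.99), and that of Dnmt3b most like Copg1, Orc3 and P4hb (r = 0.98). Tet1 resembled Atp5g3, Abhd15 and Abat (r = 0.94 to 0.95), Tet2 resembled Cited4, Psme4 and Esyt2 (r = 0.97 to 0.98), and Tet3 resembled Col8a2, Brpf3 and Ror2 (r = 0.99). Tdg was nearest to Csnk1a1, Gpalpp1 and Syncrip (r = 0.96 to 0.98). Lmnb2, a nuclear lamina gene, stood at 36.3 ± 5.31 CPM in XX E11.5, 14.5 ± 4.06 CPM in XX E15.5 and 64.7 ± 3.29 CPM in XY E15.5 (SD, n = 3). The points are group means that share libraries, and the correlations are descriptions without a test.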

How the data were processed

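Polyadenylated RNA of sorted cells was sequenced after a low-input kit that amplifies cDNA, per the labels' protocols. The authors deposited expected counts per gene, of which 17.5% of values are not whole, and TPM values that sum to between 938739.72 and 961696.29 over the genes listed. The build was mm10, per the submitters' processing notes, and the aligner, counter and use of strand are not given in the sources used here. The expected counts were rounded, filtered with filterByExpr and scaled by TMM, and 8 group means were fitted to 24 libraries with edgeR 4.0.16 in R 4.3.3 (quasi-likelihood, robust, 16 residual degrees of freedom). Benjamini-Hochberg adjustment ran over 16190 genes, and calls needed an adjusted p under 0.05. A floor of 3 counts was 0.0774 to 0.26 CPM and covers counting error only. The script was tested on simulated data with 200 changed genes.

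The 8 genes and the gene lists were chosen with earlier results of these data known. From each list the called genes with the largest absolute log2 difference were named, up to 3 per comparison, with genes set beside a member and the 3 genes most like each member among those with at least 10 CPM in their highest group. Uhrf2, Mbd1, Piwil2, Sycp3, Nanos2, Pou5f1, Ddx4, Mael and Dazl were named after their values were seen. One gene that this rule names is not reported here. Alternatives were DESeq2 1.42.0, limma 3.58.1 on log2(TPM + 1) and log2(TPM + 0.1), other filters and scaling, a replicate block, fits to the compared libraries, an absolute log2 difference of at least 1, and each library left out. A fit without the E11.5 libraries was added after seeing the data. Replicates of a group differed by more than counting noise in all 24 pairs (chi-square over its degrees of freedom 3.98 to 122.1).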

Additional observations from a re-analysis of the deposited data

Results flagged for a closer look

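The gap between XX and XY cells depended on stage for 6 of the 7 genes counted, by the edgeR test of the sex-by-stage interaction. The adjusted p was 4.62e-08 for Dnmt1, 3.98e-06 for Dnmt3a, 1.02e-05 for Tet3 and 2.06e-04 for Tet2, and none of the 24 fits with 1 library left out ended these calls. It was 0.0175 for Tet1 and 0.0319 for Dnmt3b, which lost their calls without 3 and 13 of the libraries and under 3 and 4 other settings, up to adjusted p of 0.444 and 0.284. Over all genes tested the same interaction was called for 70.1%.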

How the results depend on the processing

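Over the alternatives, single-gene results kept their side of the threshold, and their direction where they had one, in 2486 comparisons with the reported value. They gained a call in 65, lost one in 142 and changed sign in 14. The 2486 include results called in neither fit and tests across stages, which have no direction. They also include Dnmt3l, whose calls were fixed by its passing the filter through XY E15.5 alone. No alternative other than the fold threshold ended the calls of Dnmt1 at E13.5 and E15.5, of Dnmt3a and Dnmt3b from E12.5 to E15.5, of Tet2 at E13.5 and E15.5 or of Tet3 from E12.5 to E15.5. The causes of the changes below were not tested. With limma on log2(TPM + 1), with or without the filter, XX minus XY became 0.15 for Tet3 at E11.5 and -0.32 for Tet1 at E15.5, and the first Dnmt3a step in XX cells became 0.23; with a pseudocount of 0.1 they were 0.15, -0.34 and 0.23. With 1 library left out, the E11.5 difference ranged from -0.30 to 0.068 for Tet2, -0.32 to 0.045 for Tet3 and -0.27 to 0.082 for Tdg, and the E12.5 difference of Tet2 from -0.071 to 0.25.

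Of the 7 genes, the number called in XX minus XY at E11.5 was 4 with each limma fit, 0 with the compared libraries only and 2 to 4 with 1 library left out (4 without XX E11.5 replicate 1). At E12.5 it was 3 with limma without a filter. For the XX step to E12.5 it was 4 with DESeq2, its size factors or at least 10 counts in every library, 1 with each limma fit, 0 with the compared libraries only and 0 to 5 with 1 library left out (0 without XX E11.5 replicate 3, 5 without XX E11.5 replicate 2). For the XY step to E13.5 it was 2 with the replicate block, DESeq2, the compared libraries only or the E11.5 libraries left out, and 1 to 2 with 1 library left out. For the XY step to E15.5 it was 4 with the compared libraries only. With a required log2 difference of 1 in size the numbers at E11.5, E12.5 and E13.5 were 0, 2 and 2, the 3 XX steps gave 0 each, and the XY steps gave 1, 0 and 0.

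Counts over all genes moved by over 1.5 times with the compared libraries only (E11.5 2718 in place of 6803, XX step to E12.5 1176 in place of 5505, XY steps to E13.5 and E15.5 4317 and 6111 in place of 2694 and 3448). Without the E11.5 libraries those XY steps gave 4470 and 5187. With the fold threshold the 4 stages gave 2784, 5434, 6071 and 6704, the XX steps 2107, 1404 and 1275 and the XY steps 4149, 937 and 1396. The XX step to E15.5 gave 2726 without XX E13.5 replicate 1 and 2540 without XX E15.5 replicate 3, and the XY step to E13.5 gave 1503, 1626 and 1606 without XY E12.5 replicate 2, XY E13.5 replicate 2 and XY E13.5 replicate 3. Replicate numbers were not treated as pairing, since 1 of 10 compared pairs of groups had every same-number correlation over 0.1 (range -0.19 to 0.35) and 11 of 24 libraries correlated best with their own number. Depth limits Dnmt3l most, where 3 counts are 0.0774 to 0.26 CPM.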
